A study of Mus musculus with 6 samples.

Results

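The receptors for interferons and for interleukin 10 (IL10) are built from pairs of different chains, and the genes of 4 of those chains, Ifnar1, Ifnar2, Ifngr2 and Il10rb, lie side by side on distal mouse chromosome 16. The probe sets of these 4 genes, together with those of Ifngr1 on chromosome 10 and Il10ra on chromosome 9, the chains that pair with Ifngr2 and Il10rb, were taken from the arrays wherever the platform annotation gave a probe set exactly 1 gene symbol. These are 6 of the 18193 genes so named, and they gave 13 of the 45037 probe sets other than controls, 9 for the 4 trisomic genes and 4 for the 2 partner chains. Expression was measured in neurospheres, floating colonies grown for 7 days from neural stem cells and progenitors of the lateral ventricle wall of 84-day-old female mice. Ts1Cje mice, on a C57BL/6 background, carry an extra copy of chromosome 16 from Sod1 to the telomere, translocated to distal chromosome 12, with the extra Sod1 copy not functional. Disomic C57BL/6 littermates were the controls, and 3 arrays of each genotype were hybridised. The paper describes the cultures as 3 littermate pairs, while the labels number the replicates without naming pairs. No group received an interferon or another cytokine according to the labels, and the growth medium held fibroblast growth factor 2 and epidermal growth factor.

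Type I interferons (the alpha and beta interferons) bind a receptor of IFNAR1 and IFNAR2, and the type II interferon, interferon gamma, binds a receptor of IFNGR1 and IFNGR2. IL10 binds IL10RA, which pairs with IL10RB, a chain that is also part of the receptors for IL22 and for the lambda interferons. None of the chains is an enzyme, and each signals through a Janus kinase bound to its inner part, which phosphorylates STAT transcription factors that carry the signal to the nucleus. Extra copies of the 4 neighbouring genes are of long-standing interest in Down syndrome, since their human counterparts lie on chromosome 21.

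The stretches before the start sites of the trisomic genes are shown because these genes share a neighbourhood and an extra copy in Ts1Cje. Of the 6 genes, 4 matched the RefSeq promoter table, and Il10rb and Il10ra did not. The 250 bases before the start site lie, on the + strand of GRCm38.p6, at chr16:91372533-91372782 for Ifnar2, chr16:91484965-91485214 for Ifnar1 and chr16:91546809-91547058 for Ifngr2. Capitals mark matches, on either strand, to a GC box (GGGCGG), to a CCAAT box (named by its letters) or to the element that STAT dimers bind, the GAS element (TTCNNNGAA).
Ifnar2: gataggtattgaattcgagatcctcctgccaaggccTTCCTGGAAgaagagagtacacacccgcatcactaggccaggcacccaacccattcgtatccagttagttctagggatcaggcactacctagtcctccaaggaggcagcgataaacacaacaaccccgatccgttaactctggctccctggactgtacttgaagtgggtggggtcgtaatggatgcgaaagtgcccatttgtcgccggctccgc
Ifnar1: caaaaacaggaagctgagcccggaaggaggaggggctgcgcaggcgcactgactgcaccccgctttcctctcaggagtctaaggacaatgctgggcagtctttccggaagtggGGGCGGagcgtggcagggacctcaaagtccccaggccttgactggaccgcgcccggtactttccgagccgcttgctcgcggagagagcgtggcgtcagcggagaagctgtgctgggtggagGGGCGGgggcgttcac
Ifngr2: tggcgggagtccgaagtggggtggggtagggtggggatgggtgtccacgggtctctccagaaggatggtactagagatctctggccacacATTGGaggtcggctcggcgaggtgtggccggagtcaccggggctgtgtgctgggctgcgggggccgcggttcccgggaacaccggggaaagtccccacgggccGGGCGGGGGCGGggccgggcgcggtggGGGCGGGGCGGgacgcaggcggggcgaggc
The Ifnar2 stretch held 1 GAS element and no GC box, the Ifnar1 stretch 2 GC boxes, and the Ifngr2 stretch 4 GC boxes, of which the last pair share 1 base, and 1 CCAAT box. Among all 32851 promoters of that length a GC box was found in 32.7%, a CCAAT box in 33.8% and a GAS element in 7.02%. The core of the interferon-stimulated response element, a pair of GAAA runs set 2 bases apart that 2.98% of promoters held, and the TATA box (TATAAA), which 12.4% held, matched none of the 4 promoters, that of Ifngr1 included. GC content was 54% for Ifnar2, 65.6% for Ifnar1, 74% for Ifngr2 and 59.2% for Ifngr1, against a median of 52.4%. These matches describe letters in a window and say nothing of which factors were bound.

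Values are log2 intensities per probe set that the authors made with gcRMA. They ran from 2.23, the lowest value, which many undetected probe sets share, to 15.89. M stands for the Ts1Cje mean minus the disomic mean and A for the mean over the whole set of 6 arrays, and a probe set with A above 5 was taken as expressed. The test was the moderated t of limma with a threshold of 4, and p-values were adjusted over all 45037 probe sets. Probe set levels of different genes were not compared, because probes differ in how strongly they bind. Of 11 measured markers of neural stem and progenitor cells 8 were expressed. Among these, Sox2 lay between 13.09 and 13.44, Nes between 9.56 and 10.22 and Vim between 13.91 and 14.32 on the 6 arrays. Gfap, which is expressed in adult stem cells and astrocytes, ranged from 2.37 to 6.36 and overlapped between the genotypes. With A = 4.87 it did not count as expressed. Neither did Dlx2 (A = 4.59) or Dcx, which was within 0.1 of the lowest value on all 6 arrays. The genotypes were also apart on control probe sets that follow RNA quality and labelling. The 3' minus 5' difference of actin was 1.53 to 1.83 on disomic and 1.87 to 2.26 on Ts1Cje arrays. That of Gapdh was 2.09 to 2.28 and 2.29 to 2.44, and the mean 18S signal 10.24 to 11.74 and 11.97 to 12.36. The exact permutation p was 0.1 for each of these controls (two-sided, the smallest that 3 against 3 arrays allow). Their part in the results below was not tested.

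Of the 13 receptor probe sets 4 were expressed, 1 each for Ifnar1, Ifnar2, Il10rb and Ifngr1. The 3 expressed trisomic ones had M values of 0.50, 0.83 and 0.32, whose median was 0.50, and the single expressed partner chain, Ifngr1, had M = -0.09. The median M was 0.54 over the 80 expressed probe sets of the trisomic region and 0.01 over all 16371 expressed probe sets. A moderated t above 4 was reached by 1 of the 3 expressed trisomic receptor probe sets, that of Ifnar1, where 0.965% of all expressed probe sets and 25% of the expressed ones of the trisomic region reached it. Every Ts1Cje array lay above every disomic array on 2 of the 3, where this held for 5.53% of all expressed probe sets and 60% of those of the trisomic region. After adjustment over all probe sets no receptor probe set passed 0.05 in limma, each having an adjusted p of 1, and only 0.00222% of all probe sets passed. Before adjustment 3 of the 13 had a p under 0.05, 1 of Ifnar1 and 2 of Ifnar2, each higher in Ts1Cje, where 2.5% of all probe sets had such a p in either direction. A higher value with such a p was found for 2 of the 3 expressed trisomic ones, where 3.3% of all expressed probe sets had such a p and were higher in Ts1Cje. Counting the dim probe sets too, 2 of the 9 trisomic ones had a moderated t above 4 (0.38% of all probe sets) and 4 of the 9 did not overlap between genotypes (2.38% of all probe sets). No receptor probe set had a t below -4 or was lower on every Ts1Cje array, which held for 0.812% and 5.21% of all expressed probe sets. In these bulk cultures, a difference in the share of cells that express a gene and a difference in RNA per cell cannot be told apart.

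**Figure D1:**
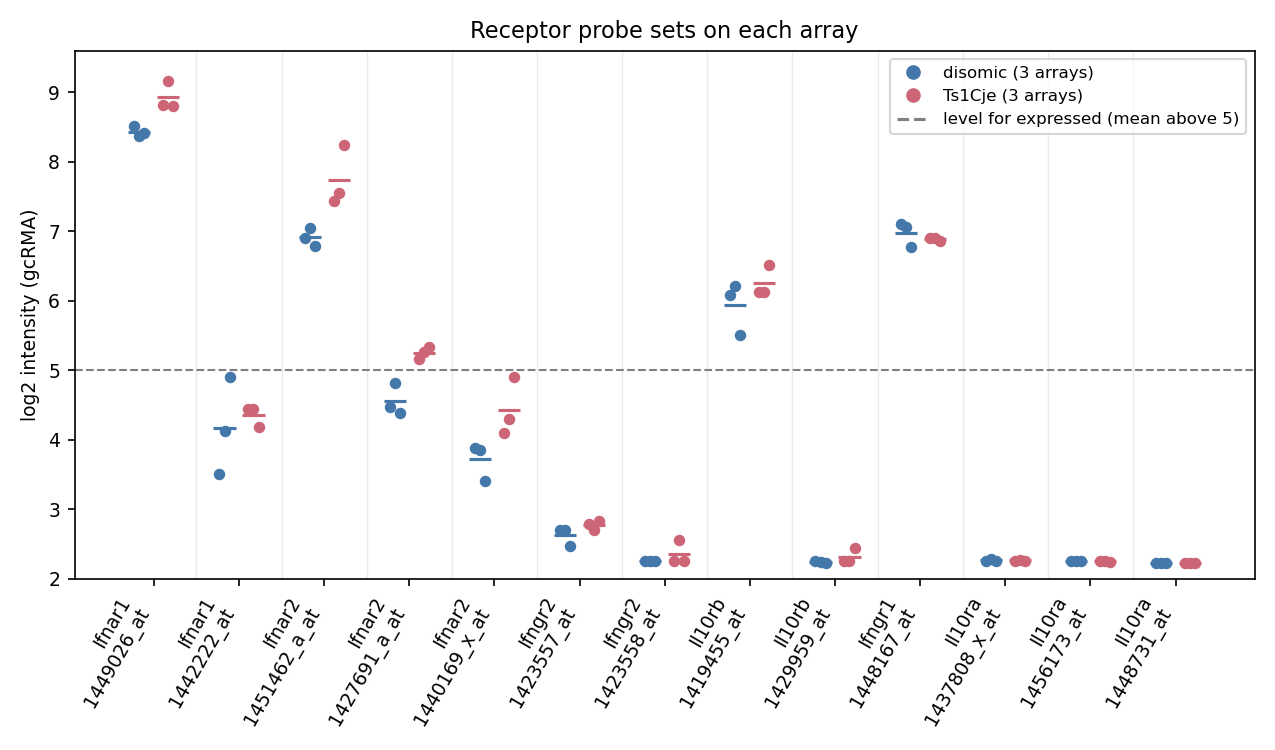
Log2 intensity of the 13 receptor probe sets on each of the 6 arrays, with points for arrays and short bars for the mean of 3 arrays. The groups are apart for 1 probe set of Ifnar1 and all 3 of Ifnar2, and the probe sets of Ifngr2 and Il10ra stay under 3.

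Ifnar2, the chain that binds type I interferon most tightly, was the receptor gene with the largest M. Its brightest probe set read 6.90, 7.05 and 6.79 on disomic replicates 1 to 3 and 7.43, 7.55 and 8.25 on Ts1Cje replicates 1 to 3. The groups did not overlap, and Ts1Cje replicate 3 stood above the other Ts1Cje arrays. The means were 6.92 ± 0.13 (SD, n = 3) and 7.74 ± 0.44 (SD, n = 3), and M was 0.83 with a standard error of 0.26, a fold change of 1.78 with a confidence interval from 1.10 to 2.87 (moderated t = 3.23, adjusted p = 1 in limma). Without Ts1Cje replicate 3 the M of this probe set was 0.57 and its moderated t 5.70. Of the expressed trisomic probe sets, 8 had a higher M.

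The other 2 probe sets of Ifnar2 were dimmer, and neither counted as expressed. On the second the disomic arrays read 4.47, 4.82 and 4.38 and the Ts1Cje arrays 5.16, 5.27 and 5.33. On the dimmest the disomic arrays read 3.88, 3.86 and 3.41 and the Ts1Cje arrays 4.10, 4.30 and 4.90. All 3 probe sets of Ifnar2 were thus higher on every Ts1Cje array. This held for 5.53% of all expressed probe sets, 60% of the expressed ones of the trisomic region and 0.583% of those not expressed. The last share is not a close match for the dim pair, since 13397 probe sets had an identical value on all arrays and could not separate. The M values of the 3 Ifnar2 probe sets lay close together at 0.83, 0.69 and 0.72, with standard errors of 0.26, 0.14 and 0.27. Only the second had a moderated t above 4, at 5.04 (adjusted p = 1 in limma), and its t was 3.89, 3.91 and 3.87 without disomic replicate 1, Ts1Cje replicate 2 and Ts1Cje replicate 3. By its platform suffix the dimmest holds probes that can also bind other transcripts, and the brighter pair hold probes shared by alternative transcripts of a gene. Across the 6 arrays the deviations from the group means correlated at r = 0.92 between the brightest and the dimmest and at 0.54 between the brightest and the second, as a description of readings that share the same arrays. The mean of the 3 probe sets had M = 0.75 and a moderated t of 3.70.

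Ifnar1, the other chain of the type I receptor and the one that binds the kinase Tyk2, was higher in Ts1Cje on its expressed probe set. On it the disomic arrays read 8.51, 8.37 and 8.42 and the Ts1Cje arrays 8.82, 9.16 and 8.81. The disomic arrays lay within a narrow range, and the lowest Ts1Cje array was above all of them. The means were 8.43 ± 0.07 and 8.93 ± 0.20 (SD, n = 3), with M = 0.50, a standard error of 0.12 and a fold change of 1.41 with a confidence interval from 1.14 to 1.75 (moderated t = 4.29, adjusted p = 1 in limma). This call depended on single arrays and settings, since the moderated t was 3.80, 3.26 and 3.32 without disomic replicates 1, 2 and 3 and 3.67 with the replicate number as a block. The second probe set of Ifnar1 had values from 3.51 to 4.90 on disomic and from 4.18 to 4.45 on Ts1Cje arrays. These groups overlapped, with M = 0.18 and a standard error of 0.39. Among the expressed trisomic probe sets 44 had a higher M than Ifnar1, which put Ifnar1 near the middle of them.

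Il10rb, the shared second chain of the receptors for IL10, IL22 and the lambda interferons, was measured above 5 by 1 of its 2 probe sets. On that probe set the disomic arrays read 6.08, 6.21 and 5.51 and the Ts1Cje arrays 6.13, 6.13 and 6.51. The groups overlapped, because disomic replicate 2 was above 2 of the Ts1Cje arrays, and disomic replicate 3 was the lowest of all. M was 0.32 with a standard error of 0.24 and a confidence interval from -0.31 to 0.96, which holds both 0 and the log2 of 1.5, 0.58 (moderated t = 1.37, adjusted p = 1 in limma). The M of Il10rb rested on disomic replicate 3, without which it was 0.11, and on Ts1Cje replicate 3, without which it was 0.20. On the dimmer one 5 of the 6 arrays lay within 0.1 of the lowest value and Ts1Cje replicate 3 read 2.44.

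Ifngr2, the chain of the interferon gamma receptor that carries Jak2, gave almost no signal on these arrays although its gene is in the trisomic segment. On the brighter of its 2 probe sets the disomic arrays read 2.70, 2.70 and 2.47 and the Ts1Cje arrays 2.79, 2.70 and 2.83, and on the other 5 of the 6 arrays read 2.26 and Ts1Cje replicate 2 read 2.56. The groups overlapped on both, and M was 0.15 (standard error 0.08) and 0.10 (standard error 0.10). At this level the values say neither that the transcript was absent nor whether it followed copy number.

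Both partner chains come from chromosomes with 2 copies in either genotype. Ifngr1, which binds interferon gamma directly and carries Jak1, read 7.10, 7.06 and 6.77 on the disomic and 6.91, 6.90 and 6.86 on the Ts1Cje arrays. The Ts1Cje arrays lay within the range of the disomic ones, and M was -0.09 with a standard error of 0.10 and a confidence interval from -0.36 to 0.18 that does not reach 0.58 (moderated t = -0.89, adjusted p = 1 in limma). Without disomic replicate 3 the M of Ifngr1 was -0.19 and its moderated t -8.24, with an adjusted p of 0.93 in limma. Il10ra, the chain specific to IL10 and found mostly on blood and immune cells, was within 0.1 of the lowest value on all 6 arrays for each of its 3 probe sets.

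The receptor chains were also compared with each other within each array, as the log2 intensity of one probe set minus that of another, where only the change between genotypes can be read. Ifnar1 minus Ifngr1 was 1.41, 1.31 and 1.65 on the disomic and 1.92, 2.26 and 1.95 on the Ts1Cje arrays, a change of 0.59 between the means. Ifnar2 minus Ifngr1 was -0.20, -0.01 and 0.02 on the disomic and 0.52, 0.64 and 1.39 on the Ts1Cje arrays, a change of 0.92. Against Ifngr1 both type I chains were thus higher on every Ts1Cje array, as was Il10rb, with a change of 0.41 (exact permutation p = 0.1 for each, two-sided, the smallest possible, and 0.14 after adjustment over the 7 differences computed). For the pair that forms the interferon gamma receptor, Ifngr2 minus Ifngr1 changed by 0.24 with no overlap and the same p, but with Ifngr2 near the lowest value. Il10rb minus Il10ra changed by 0.33 with overlapping groups (exact permutation p = 0.4), with Il10ra at the lowest value.
Between the trisomic chains, Ifnar2 minus Ifnar1 was -1.61, -1.32 and -1.63 on the disomic and -1.39, -1.61 and -0.56 on the Ts1Cje arrays, with overlapping groups and a change of 0.33 (exact permutation p = 0.6). Ifnar2 minus Il10rb changed by 0.50 with no overlap (exact permutation p = 0.1, 0.14 after adjustment). Apart from the 2 receptor pairs with a partner chain, these differences were chosen after the values had been seen. Within the groups, deviations from the group mean correlated at r = 0.70 between Ifnar2 and Il10rb, at -0.42 between Ifnar2 and Ifnar1 and at 0.75 between Il10rb and Ifngr1 over the 6 arrays, as a description only.

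**Figure D2:**
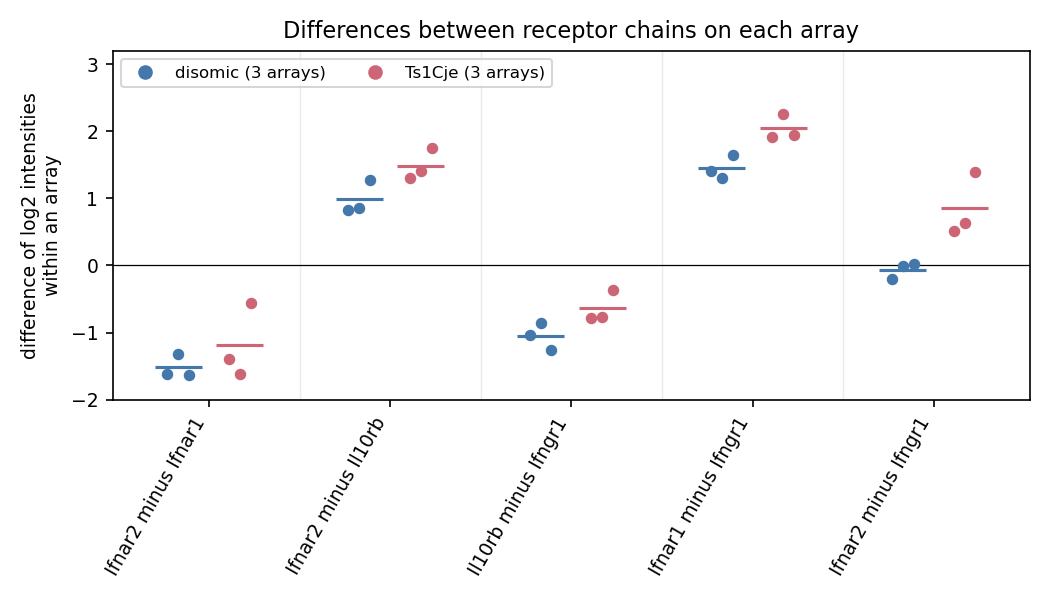
Difference of the log2 intensities of a pair of receptor probe sets within each array, with points for the 3 disomic and 3 Ts1Cje arrays and bars for their means. The groups are apart in the differences against Ifngr1 and in Ifnar2 minus Il10rb, and they overlap in Ifnar2 minus Ifnar1, where Ts1Cje replicate 3 stands apart at -0.56.

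In the order of the chromosome the receptor genes run Ifnar2, Il10rb, Ifnar1 and Ifngr2, between Olig1 on one side and Tmem50b on the other. Of 10 neighbouring genes from Olig2 to Atp5o 9 were expressed, 8 of which were higher in the Ts1Cje mean, and their median M was 0.44. A moderated t above 4 was reached by 3 of the 9, where 1.13% of all expressed genes reached it, each represented by its brightest probe set. These were Tmem50b, with M = 0.73 (moderated t = 12.11), Cryzl1, with M = 0.65 (6.20), and the purine synthesis enzyme Gart, with M = 0.66 (4.23), while the endocytic scaffold Itsn1 had M = 0.41 (3.38), each with an adjusted p of 1 in limma. The t of Gart was 3.23, 3.25 and 3.52 without Ts1Cje replicate 1, Ts1Cje replicate 2 and disomic replicate 3. Olig1 and Olig2, the neighbours before Ifnar2, had M values of 0.13 and -0.03 (standard errors 0.18 and 0.12). Dnajc28, which was below the level for expressed probe sets, had M = 0.68 with no overlap. The log2 of 1.5 lay inside the confidence interval of M for Ifnar2, Il10rb and Ifnar1 and for each of the 10 neighbours except Olig2. The intervals of Il10rb, Olig1, Son, Donson and Atp5o held 0 as well, so for these genes they separate neither value. Donson had M = 0.15 with overlapping groups. The interval of Ifngr2 is not read against the log2 of 1.5, because its values lay near the lowest value.

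**Figure D3:**
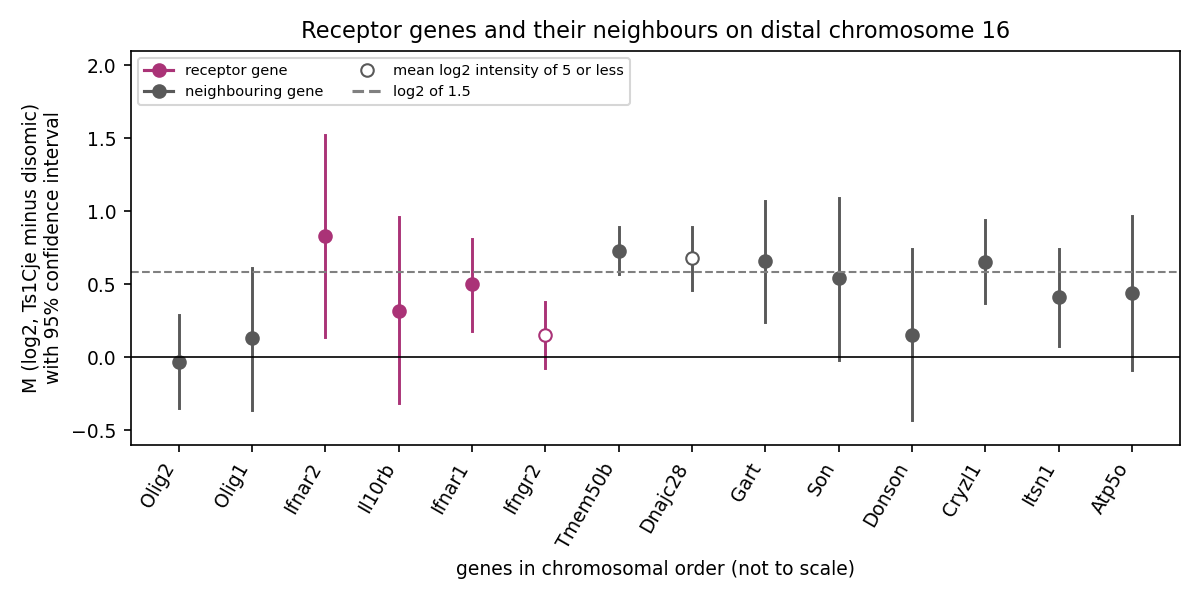
M (log2, Ts1Cje minus disomic) with its 95% confidence interval for the brightest probe set of each receptor gene and neighbouring gene, in chromosomal order and not to scale, with the log2 of 1.5 dashed. Ifnar2, Il10rb and Ifnar1 have intervals that include the dashed line, and Ifngr2 and Dnajc28 (open points) had A of 5 or less.

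No measured gene of a list of interferon and IL10 family ligands was expressed on the arrays. The list had 26 genes, of which 13 were measured, among them Ifnb1, Ifng and Il10. Il22 and the lambda interferon genes Ifnl2 and Ifnl3 were not measured, so nothing can be said of them. The highest value of any measured ligand gene on any array was 3.49, and 8 of the 13 were within 0.1 of the lowest value on all 6 arrays. The 13 measured genes were all below the level for expressed probe sets in both genotypes, so the list has no count of changes.

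The kinases and transcription factors below the receptors gave no gene past the test. Of 25 listed genes of JAK-STAT signalling 24 were measured and 14 expressed, 0 of them past a moderated t of 4 or -4 in limma and 0 with an unadjusted p under 0.05. Among all expressed genes 1.13% were past 4, 0.693% past -4 and 6.61% had such a p, so the counts of 0 are close to the background and no result about the list. Their median M was 0.14, and 10 of the 14 were above 0, where the median over all expressed genes was 0.02 and 53.9% were above 0. Those furthest from 0 relative to their error were the phosphatase Ptpn2 (M = 0.24, moderated t = 2.11), Stat5b (M = 0.10), the kinase Jak1, which serves all 3 kinds of receptor (M = 0.27), and the phosphatase Ptpn11 (M = 0.13). Jak1 read 8.70, 8.51 and 8.92 on the disomic and 8.85, 9.10 and 8.97 on the Ts1Cje arrays, which overlap.
The other Janus kinases and the STATs are given by receptor and were named after their values had been seen. Tyk2, which pairs with IFNAR1 and IL10RB, had A = 5.02 and M = 0.29 (standard error 0.30), with Ts1Cje replicate 3 at 5.75 and the other arrays between 4.67 and 5.06. Jak2, which pairs with IFNGR2, had M = 0.11 (standard error 0.11). Stat3, the main STAT of IL10, had M = 0.16 (standard error 0.29). Irf9, a DNA-binding factor of the type I response, had M = -0.17 (standard error 0.42), and Stat2 was within 0.1 of the lowest value on every array. Among inhibitors of the pathway, Socs3 had M = -0.21 and Socs2 M = 0.36, with standard errors of 0.49 and 0.62, and Socs1 was within 0.1 of the lowest value.

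**Figure D4:**
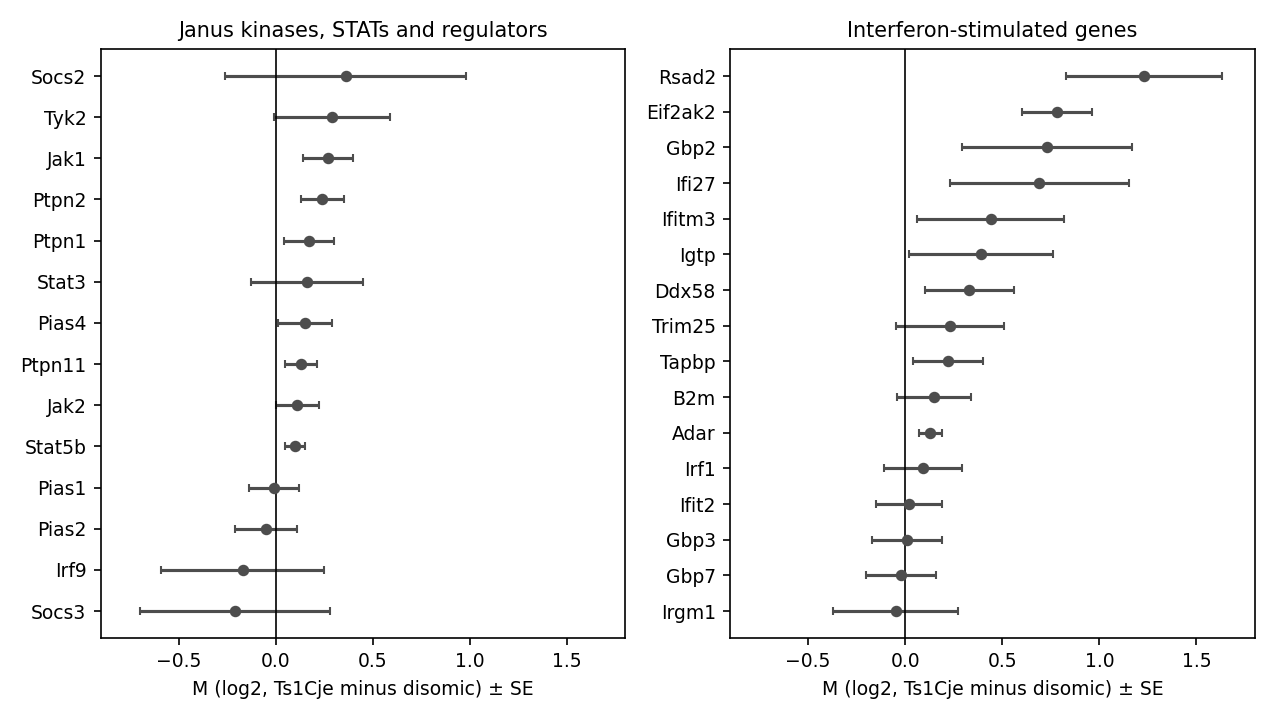
M (log2, Ts1Cje minus disomic) with its standard error for expressed genes of JAK-STAT signalling on the left and expressed interferon-stimulated genes on the right, each by its brightest probe set over 3 against 3 arrays. Rsad2 and Eif2ak2 lie furthest to the right, and the JAK-STAT genes lie between -0.21 and 0.36.

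Genes that interferons induce were described by a list of 40 symbols, of which 37 were measured and 16 expressed. None of the measured genes lies in the trisomic segment. Isg15 and Ifi44 were not measured, so nothing can be said of them, and Rigi is another symbol of the measured Ddx58. The median M of the 16 expressed genes was 0.23, and 14 of the 16 were above 0, where the median over all expressed genes was 0.02 and 53.9% were above 0. Eif2ak2, the kinase PKR that is activated by double-stranded RNA, was the 1 gene of the 16 past a moderated t of 4, where 1.13% of all expressed genes were, and none was past -4, where 0.693% were. It read 5.51, 5.64 and 5.62 on the disomic and 6.06, 6.35 and 6.69 on the Ts1Cje arrays, M = 0.78 (moderated t = 4.42, adjusted p = 1 in limma), and its t was 3.36, 3.60, 3.49 and 3.53 without disomic replicate 1, disomic replicate 2, Ts1Cje replicate 2 and disomic replicate 3. Rsad2, which encodes the antiviral enzyme viperin, read 6.60, 6.28 and 5.68 on the disomic and 6.80, 7.68 and 7.77 on the Ts1Cje arrays, M = 1.23 (moderated t = 3.10, adjusted p = 1 in limma). The t of Rsad2 was 4.63 without Ts1Cje replicate 1, but 2.29 to 3.28 with any other array left out and 2.39 with the replicate block. The genotypes did not overlap, with Ts1Cje higher, for 3 of the 16, where 6.12% of all expressed genes showed this. Adar, the RNA-editing enzyme, had M = 0.13, and Gbp2, a guanylate-binding protein, M = 0.73 with overlapping groups. At the same time 9 of the 37 measured genes were within 0.1 of the lowest value on all arrays, among them Ifit1, Irf7 and Nlrc5, which were named after their values had been seen.

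Other members of the receptor family and markers of immune cells were mostly undetected. Of the 6 other class II cytokine receptor genes only F3, which encodes tissue factor, was expressed, with M = 0.30 (standard error 0.24), and Ifnlr1, the partner of IL10RB for lambda interferons, and Il22ra1, its partner for IL22, stayed at or near the lowest value. Of 17 measured markers of microglia and immune cells, 11 were within 0.1 of the lowest value on all 6 arrays, among them Aif1, Itgam and Ptprc, and Cx3cr1 and Csf1r were not expressed. The summed linear intensity of the 17 markers was 107 to 203 on the disomic and 96.5 to 127 on the Ts1Cje arrays, and these ranges overlap. Ctss, the only one with A above 5, read 6.03, 6.54 and 4.57 on the disomic and 4.20, 5.26 and 3.59 on the Ts1Cje arrays (M = -1.36, moderated t = -1.85). Laptm5, below that level, read 4.28, 4.70 and 2.64 on the disomic and 2.75, 3.16 and 2.64 on the Ts1Cje arrays (M = -1.02, moderated t = -1.64), and Cd14 had M = -0.40 (moderated t = -1.47). The groups overlapped for all 3 genes, each of them with its highest readings on disomic replicates 1 and 2, and Laptm5 and Cd14 were named after their values had been seen.

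The genes whose pattern over the 6 arrays was most like that of each expressed receptor gene were taken by Pearson's r among 14609 expressed probe sets of other named genes. This r was taken on the log2 values, differences between the genotypes included. With 6 arrays and so many candidates high values of r are common, and 72 to 208 probe sets had an r above 0.9 with each receptor gene. For Ifnar2 they were Selenop (r = 0.989), Fdx1 (0.988) and Selenos (0.986), and for Ifnar1 Uhrf1bp1 (0.989), Lonrf2 (0.983) and Vapb (0.983). For Il10rb they were Fgd4 (0.995), Macrod2 (0.991) and 3110040N11Rik (0.991), and for Ifngr1 Coq10b (0.993), Gfpt1 (0.992) and Pnpla8 (0.987). None of these 12 genes lies in the trisomic segment. That segment held only 80 of all 16371 expressed probe sets, so this is no result about the receptor genes.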

How the data were processed

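RNA of 6 neurosphere cultures was labelled in 2 cycles and hybridised to Affymetrix whole-genome mouse arrays. The authors made the deposited log2 intensities with gcRMA, which corrects background by probe base composition, normalizes between arrays and summarises probe sets, and no version is given in the sources used here. Background correction and summary could not be repeated from these values. The arrays' number limits the precision. Genotypes and replicate numbers were taken from the labels, and biological replicates were labelled as such. Control probe sets (64) were kept apart. The platform annotation names 34945 probe sets with 1 symbol, 932 with several and 9160 with none. To all 45037 other probe sets limma 3.58.1 in R 4.3.3 fitted a model whose single term was genotype, with empirical Bayes moderation and Benjamini-Hochberg adjustment. The prior degrees of freedom were 0.336. Exact permutation tests over arrays were two-sided. The fit was tested on simulated data. Figures were drawn with matplotlib 3.10.9. Named were all receptor genes, up to 4 expressed genes of each list with the largest absolute t and all past 4, fixed marker genes and the 3 most similar genes. The members and lists were chosen with earlier results of these data known. Alternatives were the replicate block, each array left out, cyclic loess, array weights, a trended prior, a fit to expressed probe sets, other levels for expressed probe sets and means over probe sets.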

Additional observations from a re-analysis of the deposited data

How the results depend on the processing

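The M of Ifnar1 kept its direction under every alternative, between 0.38 and 0.56 with 1 array left out, and its moderated t fell below 4 with the replicate number as a block (M = 0.50, t = 3.67), with cyclic loess (M = 0.49, t just under 4), in a fit to expressed probe sets (M = 0.50, t = 3.47) and, an alternative chosen after seeing the data, as the mean of both probe sets (M = 0.34, t = 1.69). The count of expressed trisomic receptor probe sets past a t of 4 was 1, was 0 in the first 3 of these settings, was 2 of 6 with A over 4, and ran from 0 to 2 with 1 array left out. With 1 array left out the M of Ifnar2 ran from 0.57 to 0.98, of Ifngr2 from 0.08 to 0.19, of Il10rb from 0.11 to 0.46, of Ifngr1 from -0.19 to -0.03 and of Il10ra, at the lowest value, from -0.01 to 0, with a change of sign without disomic replicate 2. The median M of the trisomic receptors ran from 0.39 to 0.56. The change in Ifngr2 minus Ifngr1 ran from 0.20 to 0.29 and that in Il10rb minus Il10ra from 0.12 to 0.46. No alternative gave a receptor gene an adjusted p under 0.762 in limma. Deviations of same-numbered arrays from their group means correlated at -0.17, -0.03 and 0.13 over expressed probe sets. Of the 6 arrays, 1 correlated best with its own number. These values cannot show whether same-numbered arrays came from littermates, and the replicate block is given as an alternative only. The causes of these changes were not tested. With 3 arrays a genotype and signals near the lowest value for Ifngr2 and Il10ra, no change of those chains could be measured.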
